A study of Rattus norvegicus with 6 samples.

Results

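The 9 genes described here encode enzymes that make or break down heme: Alas1, Alas2, Alad, Urod, Cpox, Ppox, Fech, Hmox1 and Blvrb. They were taken by gene symbol from a table of liver RNA-seq levels in the rat. Each of the 9 symbols had exactly 1 row, out of 25926 rows in all, and all 9 passed the filter on low values. Livers came from 3 rats given total parenteral nutrition (TPN, feeding through a vein alone) for 7 days, and from 3 control rats given 0.9% saline. The TPN rats carried the disease label PNALD (parenteral nutrition-associated liver disease) and the controls the label normal. The strain was Sprague-Dawley and the labelled age 4 weeks in both groups. The sources used here give neither the makeup of the infusion nor the diet of the controls.

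Heme is an iron-holding ring that carries oxygen in hemoglobin and does the chemistry of cytochromes P450, which take up most of the heme made in hepatocytes. Its synthesis starts in the mitochondrion, where ALA synthase joins glycine and succinyl-CoA. Alas1 encodes this enzyme in hepatocytes and most other cells and is held down by heme, whereas Alas2 encodes it in red cell precursors. Alad, Uros and Urod are among the enzymes that act next in the cytosol, and Cpox, Ppox and Fech, which inserts the iron, finish the ring in mitochondria. Heme oxygenase 1, encoded by Hmox1, opens the ring and frees iron and biliverdin, and biliverdin reductases make bilirubin, which the liver conjugates and passes into bile.

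The reference sequences around the annotated starts of 4 members are given because the ALA synthase genes differ in the cells that use them and because Ppox and Fech had the next smallest p-values after Alas2. Each runs from 250 bases before the start to 30 bases after it, in RefSeq's annotation of the rat build GRCr8. Capitals mark GATAA on either strand (TTATC on the printed strand), the core bound by GATA factors such as the red cell regulator GATA1, and GCGCATG on either strand (CATGCGC on the printed strand), most of a site of the factor NRF1, where a match on each strand can overlap. RefSeq windows were matched by symbol for 7 of the 9 members.
Alas1 (chr8:115768613-115768892, minus strand): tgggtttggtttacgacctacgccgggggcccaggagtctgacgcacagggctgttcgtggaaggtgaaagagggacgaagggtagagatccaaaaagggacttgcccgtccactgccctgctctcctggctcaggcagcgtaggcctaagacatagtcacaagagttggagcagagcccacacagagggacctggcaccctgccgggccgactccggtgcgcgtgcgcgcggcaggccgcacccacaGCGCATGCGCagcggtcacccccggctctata
Alas2 (chrX:22895200-22895479, plus strand): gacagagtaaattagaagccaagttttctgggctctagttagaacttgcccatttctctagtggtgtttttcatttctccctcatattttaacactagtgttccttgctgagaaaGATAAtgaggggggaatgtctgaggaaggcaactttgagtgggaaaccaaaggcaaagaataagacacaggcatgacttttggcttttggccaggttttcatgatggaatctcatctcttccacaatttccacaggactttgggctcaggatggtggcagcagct
Ppox (chr13:86234217-86234496, minus strand): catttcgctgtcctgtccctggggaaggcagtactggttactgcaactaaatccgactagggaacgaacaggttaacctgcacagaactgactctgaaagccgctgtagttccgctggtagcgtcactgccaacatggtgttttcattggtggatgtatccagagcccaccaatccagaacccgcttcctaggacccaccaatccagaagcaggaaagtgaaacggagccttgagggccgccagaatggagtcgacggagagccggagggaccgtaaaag
Fech (chr18:60248496-60248775, minus strand): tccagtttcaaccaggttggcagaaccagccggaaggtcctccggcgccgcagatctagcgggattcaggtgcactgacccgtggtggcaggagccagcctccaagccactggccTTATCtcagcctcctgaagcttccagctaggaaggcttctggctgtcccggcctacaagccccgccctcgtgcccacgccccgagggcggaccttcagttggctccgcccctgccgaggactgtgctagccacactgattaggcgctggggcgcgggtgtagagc

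Alas1 was the 1 member of these 7 with GCGCATG, in overlapping matches from base -2 to base 8 around the start, and 3.59% of 33469 such windows held that motif. GATAA was found in Alas2 and in Fech, in both from base -135 to base -131, and in 25.3% of all windows. The annotated start of Alas2 lay 15 bases before the first ATG that follows it. Which start these livers used was not tested, and a match of letters shows no binding.

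The table holds FPKM, fragments scaled to transcript length and to the mapped total of a library, so levels can be set side by side between genes. Depth is unknown, since no steps of single reads were visible among low values. Defining markers of hepatocytes were high under the liver label, with Alb (albumin) at 12828 to 39337 FPKM in TPN livers and 32506 to 48388 FPKM in control livers. Control 2 stood apart within its group, since acute-phase transcripts, which hepatocytes raise in inflammation, were high there. Lcn2 had 9127, 172 and 77.2 FPKM in TPN 1, 2 and 3, and 3.68, 112 and 7.29 FPKM in control 1, 2 and 3. TPN 1 was the highest TPN liver in Lcn2 and the lowest in Alb. Of 12 hepatocyte markers tested, 5 were positive and 7 negative, where 49.1% of all features were negative. Without overlap 3 were lower in TPN and 0 higher, where 9.09% of all features were lower and 8.02% higher in that way. None of the 12 passed limma's test. For each member, values with livers left out are given below.

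Alas2 was the 1 member of 9 that passed the test, and it was lower in TPN livers. The test was limma on log2(FPKM + 1) across the 11362 features averaging 1 FPKM or more, at a Benjamini-Hochberg adjusted p under 0.05. By the same rule 0.22% of all features were called lower in TPN and 0.0264% higher. The other 8 members had limma adjusted p from 0.241 to 0.988. Of the 9 log2 fold changes 8 were negative, with a median of -0.22, where 49.1% of all features were negative and their median was 0.0065. Alas1, whose value is the members' median, Alad and Cpox turned positive when certain single livers were left out. Groups were free of overlap for 2 members, Alas2 and Ppox, both lower in TPN, a pattern found in 9.09% of all features. With 3 livers a group, an exact 2-sided permutation test of a single gene cannot give a p under 0.1, so p-values come from the model across all features. Of the 86 tested genes on the other pathway lists none passed limma's test. An unadjusted limma p under 0.05 was found for 14 of them, where 7.01% of all features were lower and 4.44% higher at that level.

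**Figure D1:**
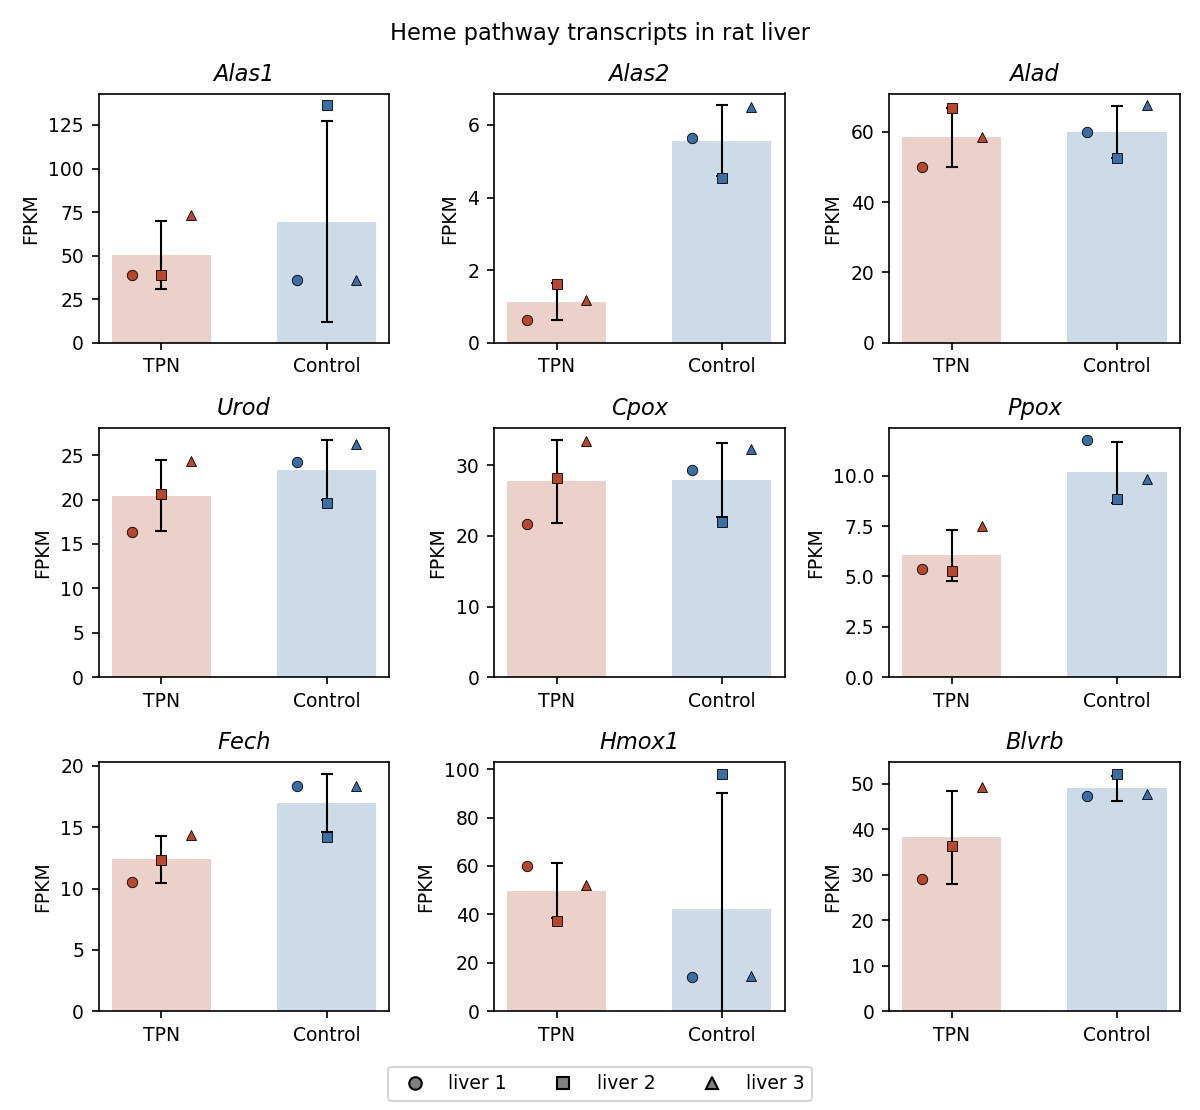
FPKM of each member in each liver (points, shaped by liver number), with bars at the group mean and error bars of 1 SD, n = 3 a group, TPN left of Control. Alas2 and Ppox show no overlap, and control 2 lies far above the other controls for Alas1 and Hmox1. The lower end of the control error bar of Hmox1 is cut off at 0.

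Alas2 had 0.625, 1.62 and 1.17 FPKM in TPN 1, 2 and 3, against 5.65, 4.55 and 6.495 FPKM in control 1, 2 and 3. Every control liver was above every TPN liver, by a margin wider than the spread within either group. The mean was 1.14 ± 0.498 FPKM in TPN livers and 5.56 ± 0.975 FPKM in control livers (SD, n = 3 each), so that Alas2 fell to a level 4.89-fold lower in TPN. On the log2 scale the difference was -1.63 (SE 0.21, limma adjusted p = 0.0418). The log2 difference ran from -1.79 to -1.45 with any 1 liver left out, and was -2.27 with a pseudocount of 0.1 in place of 1 (limma adjusted p = 0.0604). The call was lost with other choices too, at a limma adjusted p of 0.154 without the filter, 0.0633 with median-ratio scaling, 0.0686 with quantile normalisation and 0.0512 without trend and robust settings. With livers left out, limma's adjusted p was 0.07775 without TPN 2, 0.148 without TPN 3, 0.14 without control 1 and 0.114 without control 3, and 0.0294 without control 2 and TPN 1 together.

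Alas2 moved with other transcripts of red cells, whose globin chains carry the finished heme. Hba-a1, an alpha globin, had 115, 296 and 209 FPKM in TPN 1, 2 and 3, against 1066, 999 and 1183 FPKM in control 1, 2 and 3. In both groups the order of the livers was that of Alas2. Alpha globin genes are near-identical copies, so how reads were split between them is uncertain, and a sum over globins is given next. The summed FPKM of Hba-a1, Hba-a2 and Hbb was 402 ± 173 in TPN livers and 2215 ± 166 in control livers, 5.51-fold lower in TPN. Per 1000 FPKM of these globins, Alas2 amounted to 2.73, 2.82 and 2.91 FPKM in TPN 1, 2 and 3, and to 2.66, 2.15 and 2.698 FPKM in control 1, 2 and 3. This ratio was chosen after the values were seen, so it is given without a test. Its mean was 2.82 ± 0.0939 in TPN livers and 2.503 ± 0.308 in control livers (SD, n = 3 each), with all TPN livers slightly above all controls.

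**Figure D2:**
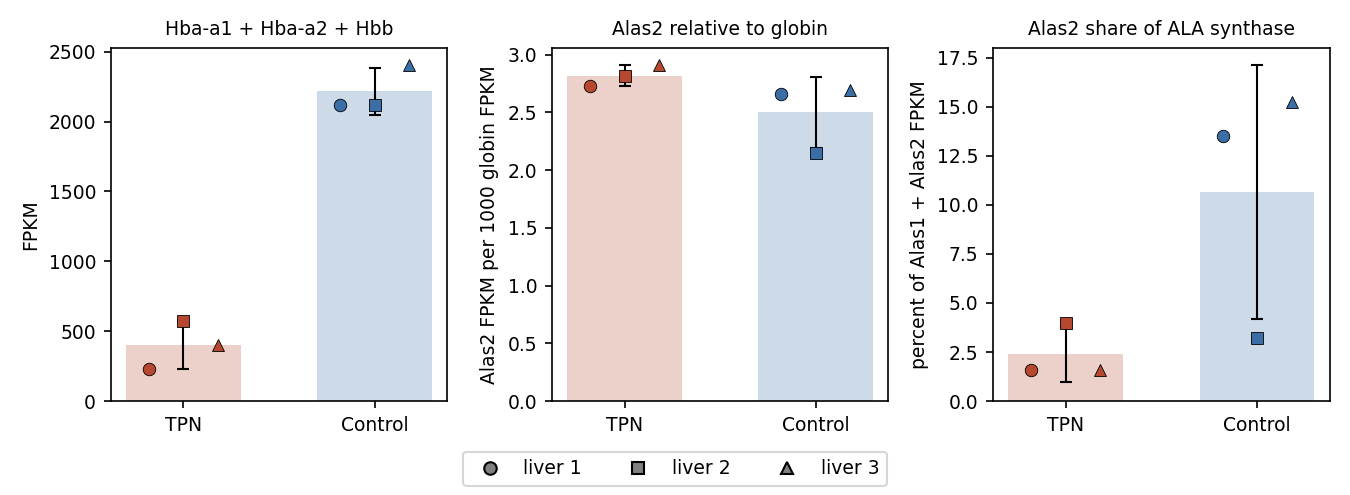
Summed FPKM of 3 globin genes, Alas2 FPKM per 1000 FPKM of those globins, and Alas2 as a percent of Alas1 plus Alas2 FPKM, in each liver (points), with the group mean (bars) and 1 SD (error bars), n = 3 a group. The globin sum is 5.51-fold lower in TPN livers, whereas the ratio of Alas2 to globin lies between 2.15 and 2.91 in all 6.

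Of 34 red cell markers listed beside the members, 28 had a row and 12 reached the filter. Among these 12, 10 had negative log2 fold changes and 8 were lower in TPN without overlap (9.09% of all features). Hba-a1, Hba-a2 and Hbb, 3 of the 12, passed limma's test, where 0.22% of all features were called lower. Of the 8, Slc4a1, Ahsp and Nfe2 averaged 0.42, 0.327 and 0.368 FPKM in TPN livers and reached the filter through the control livers. Rows under the filter are not in these counts. The summed level of all 28 rows ran from 271 to 664 FPKM in TPN livers and from 2184 to 2501 FPKM in control livers. Most of that sum was Hba-a1, Hba-a2 and Hbb, at 229 to 575 FPKM in TPN livers and 2118 to 2407 FPKM in control livers. Slc4a1, the anion exchanger of red cells, had 0.501, 0.341 and 0.419 FPKM in TPN 1, 2 and 3, and 1.13, 1.61 and 2.705 FPKM in control 1, 2 and 3 (limma adjusted p = 0.173). Gata1, the regulator of red cell precursors, had 0.0169, 0 and 0 FPKM in TPN livers and 0.0812, 0.0877 and 0.049 FPKM in control livers, near the bottom of the scale in both groups. Tfrc, the transferrin receptor that brings iron to heme-making cells and that other cells also use, went the other way in the means, with 10.4, 59 and 76.5 FPKM in TPN 1, 2 and 3 and 14.3, 13.1 and 20.9 FPKM in control 1, 2 and 3 (limma adjusted p = 0.6). Markers of dividing cells were lower in the same livers, with summed levels of 4.65 to 6.22 FPKM in TPN livers and 21.7 to 37.9 FPKM in control livers. All 8 were lower without overlap, where 9.09% of all features were. Rrm2, Cdk1, Ccna2 and Mki67, 4 of them, passed limma's test, where 0.22% of all features were called lower. Except for Tyms, each of the 8 averaged under 1 FPKM in TPN livers and reached the filter through the control livers. Of these marker calls, the 3 globins, Rrm2, Cdk1 and Ccna2 were each lost without TPN 2 (limma adjusted p from 0.0764 to 0.133), without TPN 3 (0.106 to 0.157) and without control 1 (0.0611 to 0.148). Without control 3 all of them but Rrm2 were lost (0.0605 to 0.137), Hba-a1 and Hba-a2 also without control 2 (0.061), and Ccna2 without TPN 1 (0.0649). In bulk liver, fewer red cells or precursors and less Alas2 RNA per cell cannot be told apart. The part of the red cell and dividing cell markers in the members' values was not tested.

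Alas1, the synthase of hepatocytes, had 38.95, 39.2 and 73.1 FPKM in TPN 1, 2 and 3, against 36.1, 136 and 36.2 FPKM in control 1, 2 and 3. The groups overlapped, 4 of the 6 livers lay close together, and TPN 3 and control 2 were high. The mean was 50.4 ± 19.7 FPKM in TPN livers and 69.5 ± 57.8 FPKM in control livers (SD, n = 3 each), a log2 difference of -0.22 (SE 0.55, limma adjusted p = 0.925). Without control 2 the log2 fold change was 0.41 (limma adjusted p = 0.652), so control 2 set its sign. In control 2 the phenobarbital-responsive cytochrome Cyp2b2, a heme protein of hepatocytes, was high as well. Cyp2b2 was named for its likeness in pattern to Alas1 over these 6 livers, so this is no separate result. It had 492 FPKM in control 2, 36.5 and 88.7 FPKM in control 1 and 3, and 51.4, 52.8 and 140 FPKM in TPN 1, 2 and 3. Reads shared with its near copy Cyp2b1 may be split between them. Among other listed cytochromes P450, control 2 was the highest control for some and the lowest for others.

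The makeup of ALA synthase RNA followed from both genes. Alas2 made up 1.58%, 3.97% and 1.58% of the FPKM of Alas1 plus Alas2 in TPN livers 1, 2 and 3, against 13.5%, 3.23% and 15.2% of it in control livers 1, 2 and 3. Control 2 lay within the TPN range, with Alas1 at 136 FPKM and Alas2 at 4.55 FPKM, above all TPN livers. The mean share was 2.37% ± 1.38 in TPN livers and 10.7% ± 6.49 in control livers (SD, n = 3 each, exact 2-sided permutation p = 0.2, where 0.1 is the smallest that this design can give).

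Among the listed regulators of Alas1, none of 11 passed limma's test over all features and 4 log2 fold changes were positive and 7 negative. Without overlap 1 was higher and 1 lower in TPN, near the 8.02% and 9.09% of all features that were so. Ppargc1a, a coactivator that drives Alas1 in fasting, had 2.12, 4.16 and 2.79 FPKM in TPN 1, 2 and 3, and 1.96, 1.92 and 1.35 FPKM in control 1, 2 and 3 (log2 fold change 0.53, SE 0.21, limma adjusted p = 0.399). Those groups did not overlap, and control 2, where Alas1 was highest, was not high in Ppargc1a. Nr1d1, a clock repressor that has been tied to Alas1 through Ppargc1a, had 4.63, 7.72 and 12.2 FPKM in TPN 1, 2 and 3, and 19.3, 20.96 and 33.6 FPKM in control 1, 2 and 3 (log2 fold change -1.52, SE 0.34, limma adjusted p = 0.173). Here too the groups were apart.

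The cytosolic steps described here showed levels that overlapped between the groups. Alad, which joins ALA molecules into porphobilinogen, had 49.9, 66.8 and 58.4 FPKM in TPN 1, 2 and 3, and 59.8, 52.5 and 67.5 FPKM in control 1, 2 and 3 (log2 fold change -0.039, SE 0.19, limma adjusted p = 0.965). Uros, which closes the ring, was low in both groups, with 2.82, 3.35 and 3.77 FPKM in TPN 1, 2 and 3 and 3.94, 2.88 and 3.19 FPKM in control 1, 2 and 3 (log2 fold change -0.0067, SE 0.16, limma adjusted p = 0.991). Urod, which trims its side chains, had 16.3, 20.7 and 24.4 FPKM in TPN 1, 2 and 3, and 24.3, 19.6 and 26.2 FPKM in control 1, 2 and 3 (log2 fold change -0.19, SE 0.20, limma adjusted p = 0.776). For Alad, Uros and Urod the difference of means was below 1 SD of either group. With any 1 liver left out, the log2 fold change ran from -0.14 to 0.067 for Alad and from -0.32 to -0.044 for Urod.

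The mitochondrial steps gave mixed values. Cpox, the coproporphyrinogen oxidase, had 21.6, 28.2 and 33.4 FPKM in TPN 1, 2 and 3, and 29.4, 22 and 32.3 FPKM in control 1, 2 and 3 (log2 fold change -0.012, SE 0.22, limma adjusted p = 0.988). Both groups covered nearly the same range, and with any 1 liver left out the value ran from -0.17 to 0.15. Ppox, the protoporphyrinogen oxidase that acts next, had 5.36, 5.28 and 7.52 FPKM in TPN 1, 2 and 3, against 11.8, 8.86 and 9.84 FPKM in control 1, 2 and 3. All 3 TPN livers were below all 3 controls, and the mean was 6.05 ± 1.27 FPKM in TPN livers and 10.2 ± 1.499 FPKM in control livers (SD, n = 3 each), 1.68-fold lower in TPN. On the log2 scale this was -0.67 (SE 0.18, unadjusted p = 0.00665 and adjusted p = 0.241 by limma), so Ppox did not pass over all features. With any 1 liver left out it stayed between -0.81 and -0.57.

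Fech, the ferrochelatase that puts iron into the ring, had 10.5, 12.3 and 14.4 FPKM in TPN 1, 2 and 3, and 18.3, 14.2 and 18.3 FPKM in control 1, 2 and 3. The groups touched, since TPN 3 was slightly above control 2. The mean was 12.4 ± 1.93 FPKM in TPN livers and 17 ± 2.39 FPKM in control livers (SD, n = 3 each), a log2 difference of -0.42 (SE 0.18, unadjusted p = 0.0468 and adjusted p = 0.428 by limma). With any 1 liver left out that was -0.54 to -0.32. Most of the red cell markers given above were lower in the same livers, and their part in the values of Ppox and Fech was not tested. Alas2, Ppox and Fech were the 3 members with an unadjusted p under 0.05, where 7.01% of all features were lower and 4.44% higher at that level.

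**Figure D3:**
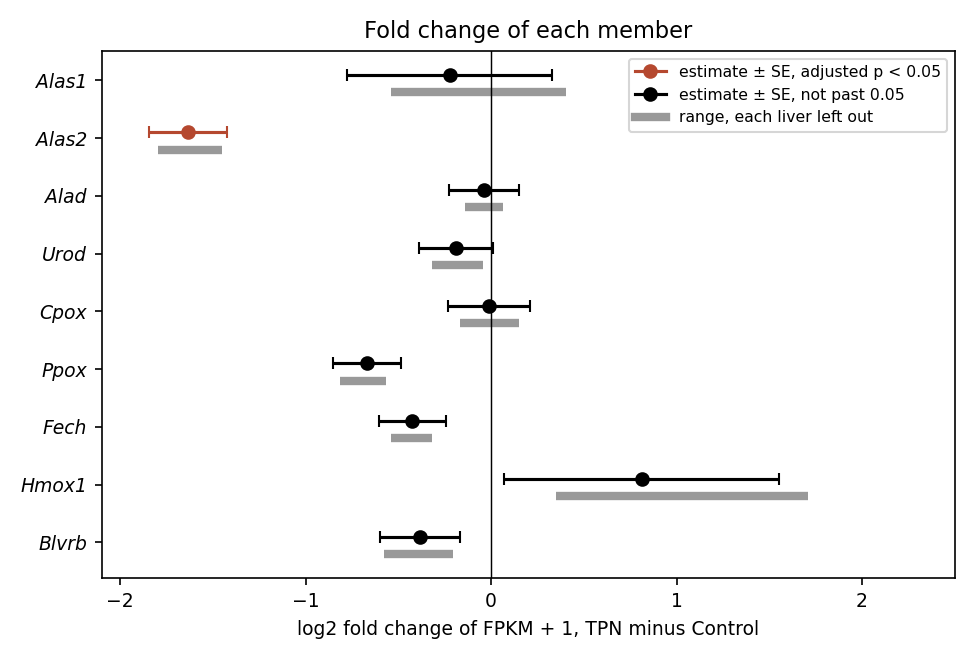
Log2 fold change of FPKM + 1, TPN minus Control, for each member (points, with bars of 1 SE) and the range of the same value with each of the 6 livers left out in turn (grey bars). Alas2 at -1.63 is the 1 member past the adjusted threshold, and the grey bars of Alas1, Alad and Cpox cross 0.

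Hmox1 had 59.9, 37.4 and 52.3 FPKM in TPN 1, 2 and 3, against 14, 97.8 and 14.5 FPKM in control 1, 2 and 3. All 3 TPN livers lay between 2 low controls and control 2, the highest liver of the 6. The mean was 49.9 ± 11.5 FPKM in TPN livers and 42.1 ± 48.2 FPKM in control livers (SD, n = 3 each), a log2 difference of 0.81 (SE 0.74, limma adjusted p = 0.74). Without control 2 it was 1.71 (SE 0.25, limma adjusted p = 0.049), and 1.57 (limma adjusted p = 0.0431) without control 2 and TPN 1 together. Control 2 therefore decided whether Hmox1 passed.

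As with Hmox1, control 1 and 3 were the lowest livers for 2 plasma-binding transcripts, Hp and Hpx, while TPN 1 rather than control 2 was the highest. Hp (haptoglobin, which binds free hemoglobin) had 28548, 14632 and 14496 FPKM in TPN 1, 2 and 3, and 4401, 18818 and 5357 FPKM in control 1, 2 and 3 (limma adjusted p = 0.473). Hpx (hemopexin, which binds free heme) had 18782, 10002 and 7246 FPKM in TPN 1, 2 and 3, and 3206, 9772 and 3272 FPKM in control 1, 2 and 3 (limma adjusted p = 0.437). Both are acute-phase proteins, and in both control 2 lay among the TPN livers. Of the 14 acute-phase transcripts tested 12 had positive log2 fold changes, with summed levels of 43940 to 120604 FPKM in TPN livers and 22150 to 62292 FPKM in control livers. Of the neutrophil markers 2 of 9 reached the filter, S100a8 and S100a9, both positive and neither past the test. The part of these transcripts in the values of Hmox1 was not tested.

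Hmox1 is also used by Kupffer cells, the liver macrophages that take up aged red cells. Cd163, their receptor for hemoglobin bound to haptoglobin, had 26.9, 30.6 and 28.1 FPKM in TPN 1, 2 and 3, and 18.6, 25.6 and 13.9 FPKM in control 1, 2 and 3 (log2 fold change 0.57, SE 0.22, limma adjusted p = 0.392). Those groups did not overlap and control 2 was the highest control. Of 15 rows of Kupffer cell and macrophage markers tested, 12 were positive, 5 were higher in TPN without overlap, where 8.02% of all features were, and none passed limma's test. Slc40a1 entered with 2 rows, both positive and both among the 5 higher without overlap. Marco, a scavenger receptor of these cells, had 169, 141 and 95.7 FPKM in TPN 1, 2 and 3, and 74, 67.1 and 62.5 FPKM in control 1, 2 and 3 (limma adjusted p = 0.206). Clec4f, a defining marker of rodent Kupffer cells, had 89.3, 90.9 and 80.5 FPKM in TPN 1, 2 and 3, and 103, 135 and 83.8 FPKM in control 1, 2 and 3 (limma adjusted p = 0.676), a value that overlapped between the groups. The summed level of the list, with both rows of Slc40a1, ran from 704 to 1011 FPKM in TPN livers and from 557 to 823 FPKM in control livers. The part of this list in the values of Hmox1 was not tested.

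Regulators and partner targets of Hmox1 did not move together. Nfe2l2, the activator NRF2, had 22.7, 25.5 and 30.4 FPKM in TPN 1, 2 and 3, and 46.9, 25.9 and 39.1 FPKM in control 1, 2 and 3 (limma adjusted p = 0.514). Bach1, the heme-sensing repressor of Hmox1, had 5.37, 7.16 and 9.65 FPKM in TPN 1, 2 and 3, and 7.37, 10.1 and 5.36 FPKM in control 1, 2 and 3 (limma adjusted p = 0.979). None of the 7 regulators and none of the 12 NRF2 targets tested passed over all features. Nqo1, a quinone reductase and the NRF2 target with the smallest p, had 33.9, 48.2 and 47.1 FPKM in TPN 1, 2 and 3, and 10.6, 17.6 and 28 FPKM in control 1, 2 and 3 (log2 fold change 1.24, SE 0.33, limma adjusted p = 0.231). Osgin1, a growth inhibitor on the same list, had 48.3, 32.5 and 52.6 FPKM in TPN 1, 2 and 3, and 182, 72.7 and 85 FPKM in control 1, 2 and 3 (log2 fold change -1.24, SE 0.36, limma adjusted p = 0.275). Of the 12 targets 3 were positive and 9 negative.

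Neither the biliverdin reductases nor Hmox2 passed the test. Blvrb, a biliverdin and flavin reductase that is abundant in red cells, had 29, 36.4 and 49.2 FPKM in TPN 1, 2 and 3, and 47.3, 52.2 and 47.6 FPKM in control 1, 2 and 3. TPN 3 lay within the control range and the other TPN livers below it, with a log2 fold change of -0.38 (SE 0.22, limma adjusted p = 0.55, and -0.58 to -0.21 with any 1 liver left out). Blvra, the main biliverdin reductase of adult tissue, had 27.2, 14.8 and 16.1 FPKM in TPN 1, 2 and 3, and 16.2, 17.2 and 14.9 FPKM in control 1, 2 and 3 (log2 fold change 0.20, SE 0.24, limma adjusted p = 0.804). Without TPN 1 its log2 fold change was -0.058. Hmox2, the constitutive heme oxygenase, had 22.8, 21.9 and 25.3 FPKM in TPN 1, 2 and 3, and 22.3, 20.5 and 20.6 FPKM in control 1, 2 and 3 (log2 fold change 0.14, SE 0.15, limma adjusted p = 0.783), with overlapping groups.

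Genes that handle bilirubin after it is made had lower mean levels in TPN livers, though none passed limma's test. All 6 listed genes tested were negative, with a median of -1.20 on the log2 scale, and 3 were lower without overlap, where 49.1% of all features were negative and 9.09% lower without overlap. Abcc3, a pump toward the blood, had 0.855, 0.752 and 1.49 FPKM in TPN 1, 2 and 3, and 3.12, 3.75 and 3.04 FPKM in control 1, 2 and 3 (limma adjusted p = 0.0751). Slco1b2, an uptake carrier, had 61.5, 103 and 83.9 FPKM in TPN 1, 2 and 3, and 314, 181 and 249.6 FPKM in control 1, 2 and 3 (limma adjusted p = 0.0882). Abcc2, the pump that moves conjugated bilirubin into bile, had 45.1, 43.8 and 45.3 FPKM in TPN 1, 2 and 3, and 169, 85.1 and 98 FPKM in control 1, 2 and 3 (log2 fold change -1.31, SE 0.26, limma adjusted p = 0.137). Ugt1a1, the conjugating enzyme, was not analysed here.

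The members kept a similar order of level per transcript length in both groups. By mean FPKM the order was Alad, Alas1, Hmox1, Blvrb, Cpox, Urod, Fech, Ppox and Alas2 in TPN livers, and Alas1, Alad, Blvrb, Hmox1, Cpox, Urod, Fech, Ppox and Alas2 in control livers. In TPN livers neighbours overlapped in range down to Urod, and the steps between Urod and Fech, Fech and Ppox, and Ppox and Alas2 were free of overlap. The control livers showed the same 3 free steps and 1 more, between Alad and Blvrb. Alas2 was the lowest member and Ppox the next lowest in each of the 6 livers. The top member was Hmox1 in TPN 1, Alad in TPN 2 and Alas1 in TPN 3, and Alad in control 1, Alas1 in control 2 and Alad in control 3.

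Within the groups, the livers differed in a recurring way. The highest control exceeded the lowest 6.97-fold for Hmox1 and 3.77-fold for Alas1, and between 1.104-fold and 1.47-fold for the other 7 members. In TPN livers the widest ratio was 2.59-fold, for Alas2, and the narrowest 1.34-fold, for Alad. Control 2 was the lowest control for 6 of the 9 members, Alas2, Alad, Urod, Cpox, Ppox and Fech, and the highest for Alas1, Hmox1 and Blvrb. Across all features control 2 was the lowest control in 51.6% and the highest in 25.9%. TPN 1 was the lowest TPN liver for 7 of the 9 members, a place it held in 49.3% of all features, and TPN 3 was the highest for 6, a place it held in 56.9%.

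**Figure D4:**
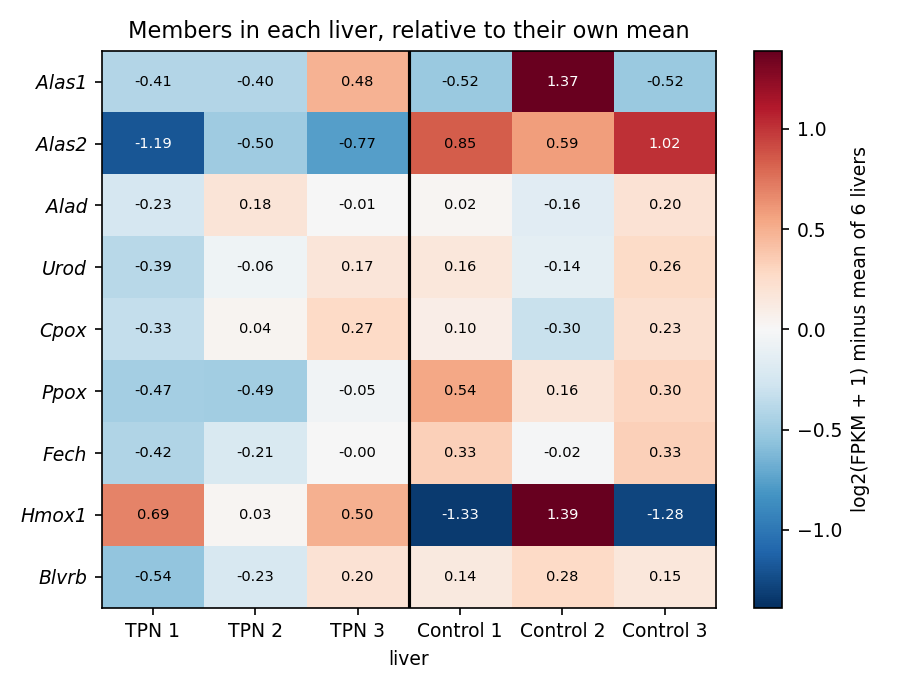
Log2(FPKM + 1) of each member in each liver minus the mean of that member over the 6 livers, TPN left of Control. Alas2 is below its mean in all 3 TPN livers and above it in all 3 controls, and control 2 stands out for Alas1 (136 FPKM) and Hmox1 (97.8 FPKM).

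Transport and support genes of the pathway, which move its intermediates across membranes or serve the mitochondrial steps, gave no call. Of 15 tested, 5 were positive and 10 negative (median -0.15 on the log2 scale), and none was free of overlap. Pgrmc1, a heme-binding protein that interacts with ferrochelatase, had the smallest p, with 204, 347 and 454 FPKM in TPN 1, 2 and 3 and 625, 450.3 and 587 FPKM in control 1, 2 and 3 (log2 fold change -0.78, SE 0.32, limma adjusted p = 0.416). Of 10 tested genes of heme export, uptake and plasma binding, 7 were positive and 3 negative, and none passed.

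Heme-binding proteins of the liver, which use the product of the pathway, had mostly negative log2 fold changes, none past the test. Por, the reductase of cytochromes P450, which holds flavins and no heme, was counted with them (log2 fold change -0.095). Of 21 tested, 17 were negative (median -0.58 on the log2 scale), where 49.1% of all features were. Without overlap 3 were lower and 1 higher in TPN, where 9.09% of all features were lower and 8.02% higher in that way. Suox, the heme-holding sulfite oxidase, had 20.9, 23 and 26.4 FPKM in TPN 1, 2 and 3, and 49.3, 32.7 and 45.8 FPKM in control 1, 2 and 3 (log2 fold change -0.82, SE 0.20, limma adjusted p = 0.204). Cyp4a2, a fatty acid hydroxylase, was the 1 higher without overlap, with 487, 264 and 163 FPKM in TPN 1, 2 and 3 and 43.4, 119 and 46.1 FPKM in control 1, 2 and 3 (log2 fold change 2.13, SE 0.51, limma adjusted p = 0.206). How reads were split between Cyp4a2 and its near copies is uncertain.

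Likeness of pattern was taken as Pearson's correlation of log2(FPKM + 1) over the 6 livers, among features with a symbol that averaged 5 FPKM or more, as a description without a test. Among the nearest to Alas2 were Myo1d (r = 0.994), an unconventional myosin, and Hba-a1 (r = 0.993), of 52 of 6371 features at 0.95 or more. The livers form 2 groups between which Alas2 differed, and no value within a group was computed. Nearest to Hmox1 were Bnip2 (r = 0.988), Enc1 (r = 0.981) and the phosphatase Ptpn1 (r = 0.979), among 14 of 6370 at that level. Nearest to Alas1 were Sipa1 (r = 0.954), the co-chaperone Bag3 (r = 0.949) and Cyp2b2 (r = 0.947), and only Sipa1 reached 0.95. Control 2 was the highest of the 6 livers in Alas1, in Hmox1 and in all 6 of these genes, and the values without it were not computed.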

How the data were processed

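RNA-seq of 6 rat livers, 3 TPN and 3 control, was grouped by sample titles. TRIzol RNA and standard Illumina libraries were used, per the labels. Bowtie 0.12.2, Cufflinks and the build Rnor_6.0 are named in the submitters' processing notes, without their roles. A single FPKM table was deposited, with no counts. At most 0.853% of ratios of values under 0.3 FPKM fell in 1 bin of 0.01 (log2), so reads could not be recovered and no counting error is given.

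The 11362 features averaging 1 FPKM or more were tested on log2(FPKM + 1), which understates changes of low genes, with limma 3.58.1 (R 4.3.3, statmod 1.5.0; trend and robust settings; group as the only term; 2-sided). Nothing says whether the livers share litters or batches, so the part of these in the group differences is unknown. Each limma p sets the group difference against the spread between these rats, moderated over all features. Simulated data were used to check the code. The 9 members and 15 lists (193 entries, 176 matched by symbol, 17 not analysed here) were chosen with earlier results of these data known. Named were all members, the 3 smallest p of each list where discussed, 16 genes set by name and the 3 nearest in pattern to Alas1, Alas2 and Hmox1. Some genes under this rule are not reported here. Tfrc, Clec4f, Mki67, Por, Tyms, Ahsp and Nfe2 fall outside this rule and were picked with their values known. Alternatives were a pseudocount of 0.1, no filter or a mean of 5 FPKM, median-ratio, quantile or TPM scaling, moderation without trend and robust settings, a replicate block, summing rows of a symbol, each liver left out, and, added after seeing the data, control 2 and TPN 1 left out together. Figures were drawn with matplotlib 3.10.9.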

Additional observations from a re-analysis of the deposited data

How the results depend on the processing

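Of the 9 members, Urod, Ppox, Fech, Blvrb, Alas2 and Hmox1 kept their sign under every alternative run, except that Alas2 had no value with a mean of at least 5 FPKM. The count of 28 features past limma's threshold was 18 with a pseudocount of 0.1, 0 without a filter (1898 at an unadjusted p under 0.05), 6 with a mean of at least 5 FPKM, 0 after median-ratio scaling (1556) and after quantile normalisation (1592), 8 without trend and robust settings, 121 without control 2 and TPN 1, and between 0 (without TPN 3, 1393 unadjusted) and 46 (without control 2) with each liver left out. The count of members past it, 1, was 0 with a pseudocount of 0.1, without a filter, with a mean of 5 FPKM (which leaves Alas2 untested), after median-ratio scaling, after quantile normalisation and without trend and robust settings. It was 2, Alas2 and Hmox1, without control 2 and TPN 1, and 0 to 2 with each liver left out. The adjusted p of Alas2 ran from 0.0294 to 0.154 over its 15 alternatives and passed in 6. The median log2 fold change of the members was between -0.52 (without TPN 3) and -0.0726 with each liver left out. The other pathway lists had 0 past the threshold. At an unadjusted limma p under 0.05 they had 14 of 86, against 1300 of all 11362 features. Past the threshold they held 1 with the replicate block and 4 without control 2 and TPN 1. The median of all features was at most 0.0278 (log2) under the scalings.

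Signs turned for 9 of the values named. Alas1 was 0.56 without control 2 and TPN 1 and ran from -0.54 to 0.41 with each liver left out. Alad was 0.035 after quantile normalisation (-0.14 to 0.067 with each liver left out). Cpox was 0.000387, 0.028 and 0.0103 after median-ratio, quantile and TPM scaling (-0.17 to 0.15), and Uros 0.00293 and 0.0113 after median-ratio and TPM scaling (-0.0842 to 0.091). Without control 2 and TPN 1, Blvra was -0.012 (-0.058 to 0.36 with each liver left out), Bach1 0.35 (-0.23 to 0.17), Sipa1 0.091 (-0.0995 to 0.074), Bag3 0.26 (-0.27 to 0.297) and Cyp2b2 0.59 (-1.52 to 0.34).

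Whether the replicate numbers pair the livers is not known. Deviations of same-numbered livers correlated at -0.21, -0.14 and 0.32. Those of differently numbered livers ran from -0.35 to 0.42, a range that holds the former, so these values cannot decide it. The replicate block gave 58 features and a limma adjusted p of 0.039 for Alas2. Depth is unknown, so counting error of low genes such as Alas2 in TPN livers cannot be given.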
